A study of Mus musculus with 12 samples.

Results

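Hair cell transcription factors are the DNA-binding proteins that set up and maintain the hair cell, the mechanosensory cell of the inner ear. A fixed set of 8 such genes, *Atoh1*, *Pou4f3*, *Gfi1*, *Lhx3*, *Barhl1*, *Insm1*, *Ikzf2* and *Rorb*, was chosen by name for their known roles in hair cells. These are 8 of the 28686 gene symbols counted, and all 8 passed the filter on low counts. RNA-seq was performed on cochlear tissue at postnatal day 6 (P6) from 6 mutant mice and 6 littermate controls, all given tamoxifen at P0 and P1. The mutants carried Sox2CreER/+Jag1fl/fl, labelled Sox2CreER;Jag1-/-, in which a tamoxifen-activated Cre recombinase is made from the *Sox2* locus and deletes the floxed part of *Jag1*, a ligand of the Notch receptors. The controls were labelled Sox2+/+, lacked the CreER allele, kept both copies of *Sox2* and, by the matings described, carried Jag1+/fl or Jag1fl/fl, and effects of the *Sox2* and *Jag1* alleles cannot be told apart. All mice were of the C57BL/6;129SV strain by their labels, and all RNAs had an integrity number between 9.7 and 10. The paper's methods instead name a C57BL/6 background for the CreER line and FVB/n for the floxed *Jag1* line.

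ATOH1, a basic helix-loop-helix activator, starts the hair cell program in the embryonic sensory epithelium. Notch signaling in neighboring cells induces the Hes and Hey repressors, which keep *Atoh1* off, and those cells become supporting cells. POU4F3 acts downstream of ATOH1 and is needed for hair cells to mature and survive, GFI1 is a zinc finger repressor downstream of POU4F3, and the homeodomain proteins LHX3 and BARHL1 are hair cell proteins, of which BARHL1 is needed for long-term survival. INSM1 and IKZF2 (Helios) act in outer hair cells, INSM1 in nascent cells and IKZF2 in their later maturation, and RORB is a nuclear receptor. In the postnatal cochlea *Sox2* marks supporting cells, which are the cells aimed at by the deletion, whereas hair cells are the main site of most of the 8 factors. The tissue also holds neurons, Schwann cells and other cells, and in such bulk samples fewer cells of a type and less RNA per cell cannot be told apart.

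Promoter sequences are given first, because Notch effectors and ATOH1 act by binding DNA. RefSeq promoter windows on GRCm38.p6, from 250 bases before the transcription start to 50 after it, were used for 5 of the 8 genes, in 9 windows. Both strands were searched for CACGCG, a core that Hes and Hey repressors bind, and for CAGNTG, the E-box core bound by proteins such as ATOH1; in these windows no match of one overlapped a match of the other. The *Atoh1* window, chr6:64728875-64729174 on the plus strand of GRCm38.p6, held CACGCG 4 times and CAGNTG 0 times. Among all 32851 windows of this length, 9.27% held CACGCG at least once and 0.0761%, or 25 windows, held it 4 or more times. These shares were not matched for base content, and genes with several windows were counted with each of them. These 4 stretches of 30 bases are shown because Hes and Hey repressors, whose genes are described below, bind the core CACGCG. The motif is in capitals on either strand, and a position after the start counts the start itself as the first base:
Atoh1, chr6:64728982-64729011, plus strand, 131 bases before the start: attggctcctcgCACGCGcctgcccgcccc
Atoh1, chr6:64729018-64729047, plus strand, 95 bases before the start: tgactgggcagaCACGCGactggcgcaagg
Atoh1, chr6:64729072-64729101, plus strand, 41 bases before the start: gagatacactggCGCGTGccgctttttaaa
Atoh1, chr6:64729128-64729157, plus strand, 16 bases after the start: gaagcttcgttgCACGCGacctggtgtgcg

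Of the other 4 genes with a window, *Rorb* held CACGCG once, and *Gfi1*, *Lhx3* and *Barhl1* held it 0 times. CAGNTG was present in windows of *Gfi1*, *Lhx3*, *Barhl1* and *Rorb*, and it was present in 51.4% of all windows, so its presence sets no gene apart. *Barhl1* and *Rorb* each carried it in both of their windows. Shown are the *Barhl1* stretches with CAGNTG and, for comparison, the *Rorb* stretch with CACGCG, the motif again in capitals:
Barhl1, chr2:28916750-28916779, minus strand, 99 bases before the start: ggccacgcagccCAGCTGgccctcctccca
Barhl1, chr2:28912493-28912522, minus strand, 15 bases before the start: tcacctcacattCAGCTGaaccctgtcatg
Rorb, chr19:19111286-19111315, minus strand, 107 bases before the start: ccccagactctcCACGCGctgcgggacgct
Each match is a run of letters in this window and not a measured binding site.

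On GRCm38, by the GENCODE M21 annotation, *Atoh1* is a gene of 1 exon at chr6:64729125-64731245 on the plus strand, and so is *Insm1* at chr2:146221921-146225020. *Ikzf2*, at chr1:69531214-69687245, and *Rorb*, at chr19:18930605-19111196, are long genes on the minus strand with 11613 and 11076 bases of merged exons, so that their CPM values are high for their level per length. *Gfi1* lies at chr5:107716657-107726036, *Lhx3* at chr2:26200212-26208289 and *Barhl1* at chr2:28907679-28916668, all on the minus strand.

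Depth was similar between genotypes. Between 28498549 and 34430252 reads were counted on genes in controls and between 31899265 and 36134983 in mutants. *Jag1* was counted first as a check of the labels. The control libraries ran from 83.0 to 118 CPM (read counts scaled to a common library total) around a median of 104, and the mutant libraries from 24.2 to 42.9 CPM around a median of 37.5. Every mutant was below every control, and the mutant mean was 35.7% of the control level (log2 fold change -1.48, SE 0.13, adjusted p = 0.000258, edgeR quasi-likelihood test). The markers of neurons and Schwann cells, in contrast, were higher in most mutants. The neuron score, the mean log2 CPM of 15 neuron markers, lay between 2.46 and 4.02 in controls and between 3.24 and 6.27 in mutants, and 5 mutants were above every control. The Schwann cell score, from 13 markers, lay between 4.31 and 5.94 in controls and between 5.80 and 7.73 in mutants, with 4 mutants above every control. Without the score of either cell type in the comparison, 35 of 18459 tested genes (0.19%) passed an adjusted p of 0.05 across the genome, of which 20 were higher and 15 lower in mutants.

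None of the 8 hair cell transcription factors passed that threshold in edgeR, in DESeq2 or in limma-voom. At an unadjusted p under 0.05 the count was also 0 of 8 in edgeR, where 10.6% of all tested genes were counted, 6.52% as higher and 4.04% as lower in mutants. DESeq2 called 3.37% of the genes it tested. The control and mutant libraries overlapped for all 8 factors, whereas 0.997% of tested genes had groups that did not overlap. The median log2 fold change of the 8 was -0.00, with 3 above 0 and 5 below, and the median of all tested genes was 0.00. The individual factors are described below by role.

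*Atoh1*, which starts the hair cell program, was close to the floor of detection at P6. Control libraries ran from 0.238 to 0.520 CPM (median 0.317) and mutant libraries from 0.245 to 0.602 CPM (median 0.475). These levels correspond to 8 to 18 reads per control library and 8 to 22 reads per mutant library. All but 1 of the mutants were above the control median, but the lowest mutant lay at the level of the lowest control and the groups overlapped. The mutant level was 130% of control, and the 95% confidence interval, 87.4% to 193%, spans both a small decrease and nearly a doubling (log2 fold change 0.38, SE 0.27, adjusted p = 0.730, edgeR).

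*Pou4f3*, needed for hair cells to mature and survive, was among the most abundant of the 8. Its control libraries ran from 14.2 to 18.6 CPM with a median of 16.4, and its mutant libraries ran from 11.9 to 21.1 CPM with a median of 15.9. The lowest and the highest of the 12 libraries were both mutants, so the controls lay inside the mutant range. The log2 fold change was -0.07 (SE 0.12, adjusted p = 0.927, edgeR), and its 95% confidence interval of -0.33 to 0.19 corresponds to 79.5% to 114% of control.

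*Gfi1*, the repressor downstream of POU4F3, ran from 4.59 to 5.45 CPM in controls with a median of 4.93, and from 3.88 to 5.35 CPM in mutants with a median of 4.80. Of the mutants, 3 were above the control median and the lowest library was a mutant. The log2 fold change was -0.07 (SE 0.10, adjusted p = 0.917, edgeR), with an interval from 81.9% to 111% of control.

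*Lhx3*, a LIM homeodomain factor, ran from 1.57 to 2.11 CPM in controls with a median of 1.78, and from 1.05 to 2.396 CPM in mutants with a median of 2.13. Again both the lowest and the highest library were mutants. The log2 fold change was 0.11 (SE 0.19, adjusted p = 0.926, edgeR), with an interval from 81.4% to 142% of control. An antisense gene, *Gm27196*, shares 188 exonic bases with *Lhx3* and had 1 to 14 reads per library. Whether the reads were counted by strand is not given in the sources used here, so reads of the pair cannot be told apart. *Gfi1* and *Ikzf2* share 101 and 144 exonic bases with opposite-strand genes that had at most 6 and 5 reads in a library.

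*Barhl1*, the homeodomain factor of long-term survival, had the most uniform controls of the 8, from 2.21 to 2.56 CPM with a median of 2.44. Its mutants ran from 1.78 to 3.18 CPM with a median of 2.38, which takes in the whole control range. The log2 fold change was -0.01 (SE 0.15, adjusted p = 0.997, edgeR), with an interval from 79.5% to 125% of control.

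*Insm1*, the zinc finger factor of nascent outer hair cells, was barely detected. It ran from 0.0578 to 0.357 CPM in controls with a median of 0.114, and from 0.0283 to 0.425 CPM in mutants with a median of 0.0854. The reads per library numbered 2 to 12 in controls and 1 to 14 in mutants, with a mean count of 5.17 that only just passed the filter of 5. At this depth the interval of the difference, from 40.2% to 248% of control, allows a change of over 2-fold either way (log2 fold change -0.00, SE 0.61, adjusted p = 0.9996, edgeR).

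*Ikzf2*, the factor of outer hair cell maturation, ran from 15.0 to 19.6 CPM in controls with a median of 15.6, and from 11.8 to 23.4 CPM in mutants with a median of 19.1. Although 5 of 6 mutants were above the control median, the remaining mutant was the lowest of all 12 libraries. The log2 fold change was 0.17 (SE 0.14, adjusted p = 0.788, edgeR), with an interval from 91.5% to 138% of control. Without that lowest library, mutant 1, the log2 fold change was 0.27 (SE 0.10, unadjusted p = 0.0196, adjusted p = 0.262, edgeR).

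*Rorb*, the nuclear receptor, ran from 12.7 to 18.2 CPM in controls with a median of 15.6, and from 12.04 to 17.5 CPM in mutants with a median of 14.1. Of the mutants, 3 were above the control median and 3 lay just below the lowest control. The log2 fold change was -0.11 (SE 0.12, adjusted p = 0.845, edgeR), with an interval from 77.9% to 110% of control.

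**Figure D1:**
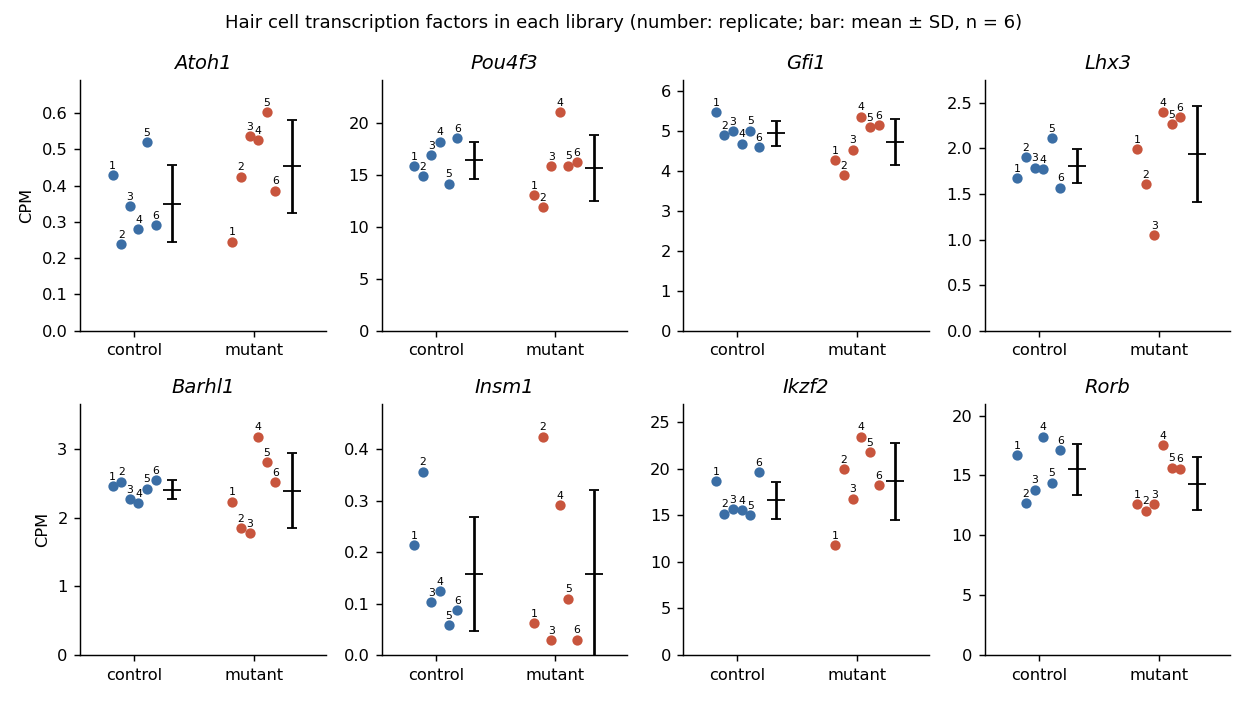
Level of each hair cell transcription factor in every library, in CPM on a linear axis from 0, for 6 controls (blue) and 6 mutants (red) with replicate numbers beside the points and the mean ± SD as a bar, which is drawn from 0 where it would fall below it. The groups overlap in all 8 panels, and mutant 4 is the highest of the 12 libraries for *Pou4f3*, *Lhx3*, *Barhl1* and *Ikzf2*.

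The factors differed widely in their levels when CPM was divided by the length of the merged exons of each gene. In controls *Pou4f3* had the highest level, 6.86 ± 0.743 CPM per kb (SD, n = 6). *Gfi1*, *Ikzf2* and *Rorb* followed at 1.55 ± 0.0959, 1.43 ± 0.173 and 1.399 ± 0.195 CPM per kb, then *Barhl1* and *Lhx3* at 0.617 ± 0.0357 and 0.592 ± 0.0618, and then *Atoh1* and *Insm1* at 0.165 ± 0.0499 and 0.0507 ± 0.0359 CPM per kb. Thus the factors fell into 4 tiers, and the same tiers were present in both genotypes. *Pou4f3* was above *Gfi1*, *Rorb* above *Barhl1*, and *Lhx3* above *Atoh1* in all 12 libraries, with no overlap of their ranges. Within tiers the order was not fixed. *Gfi1* was above *Ikzf2* in 5 of 6 controls but in 2 of 6 mutants, *Ikzf2* above *Rorb* in 4 controls and 5 mutants, *Barhl1* above *Lhx3* in 3 controls and 2 mutants, and *Atoh1* above *Insm1* in 5 controls and 6 mutants. Only *Pou4f3* exceeded the median of tested genes, 3.92 CPM per kb, with 62.8% of tested genes below it. *Gfi1*, *Ikzf2* and *Rorb* had 34.2%, 33.1% and 32.9% of genes below them, whereas *Atoh1* had 8.89% and *Insm1* had 1.998%.

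**Figure D2:**
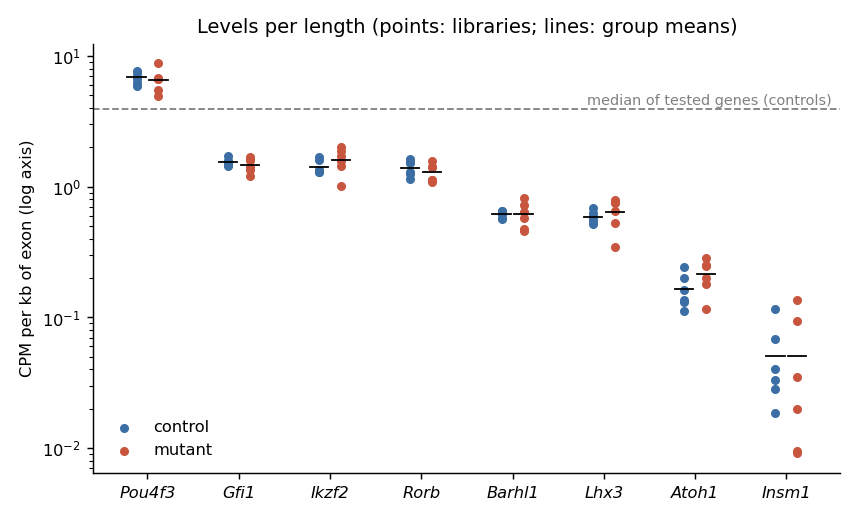
Level per length of the 8 factors in each library, in CPM per kb of exon on a log axis, for controls (blue) and mutants (red), with lines at the group means and a dashed line at the median of tested genes in controls. *Pou4f3* alone lies above the dashed line, at 6.86 CPM per kb in controls, and the controls and mutants of every factor overlap.

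In these 12 mice the factors varied more among the mutants than among the controls. The SD of log2 CPM was larger in mutants than in controls for 8 of 8 factors, compared with 60.1% of all tested genes, and the median ratio of the SDs was 1.93 for the factors and 1.13 for all tested genes. *Barhl1* had the largest ratio, 3.94, followed by *Lhx3* at 3.11, *Ikzf2* at 2.09 and *Gfi1* at 2.05. *Pou4f3* was at 1.82, and *Rorb* and *Atoh1*, at 1.09 and 1.13, were close to the genome median. The large ratios rest in part on quiet controls. The coefficients of variation of *Barhl1*, *Gfi1* and *Lhx3* in controls, 5.78%, 6.20% and 10.4%, were below the 11.2%, 7.92% and 12.7% that read counting alone gives at their mean counts. In mutants they were 23.0%, 12.2% and 27.2%. Leaving out 1 mutant at a time kept the median ratio of the factors between 1.56, without mutant 2, and 2.09, without mutant 5. Among 27 structural and synaptic hair cell markers, the median ratio was 1.28, and it was 0.99 without mutant 1 and 1.05 without mutant 4. For all tested genes the comparison turned without mutant 1, which left 43.3% of genes with the larger SD in mutants and a median ratio of 0.91. Without mutant 1 or mutant 4, 7 of the 8 factors had the larger SD in mutants. The 8 ratios come from the same mice and are not separate observations. Mutant 4 was the highest mutant for 6 factors, and mutants 2 and 3 were the lowest for 3 each. No test of these ratios was made.

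Within the mutant group 6 of the factors divided the libraries in largely the same way. For the 6 factors other than *Atoh1* and *Insm1*, mutants 4, 5 and 6 were above the median of the 12 libraries for 6 of 6 genes, whereas mutants 1 and 2 were above it for 1 gene each and mutant 3 for 0. The 1 gene above it was *Lhx3* in mutant 1 and *Ikzf2* in mutant 2. The controls were above it for 2 to 4 of the 6 genes. The share of all tested genes with such a split was not counted. *Atoh1* and *Insm1*, which had the fewest reads, were set aside here, a choice outside the planned comparisons. The 6 genes were measured in the same mice, so they are not 6 separate observations. The mean standardized level of these 6 genes, in SDs from the mean of the 12 libraries, was 1.45 in mutant 4, 0.70 in mutant 5 and 0.49 in mutant 6. It was -0.93 in mutant 1, -1.14 in mutant 2 and -1.02 in mutant 3, compared with -0.24 to 0.39 in the controls. By this mean 3 mutants lay above the control range and 3 below it, and how often other sets of genes do so was not counted. With *Atoh1* and *Insm1* included, mutant 6 was inside it, at 0.21 between controls of -0.18 and 0.42, and the other 5 mutants were outside it.

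The other cell markers of the same libraries varied as well. The hair cell score, from 27 tested hair cell markers without *Calb2* and *Pvalb*, a split made after their values were seen, was 3.43 in mutant 4, the highest of the 12, and 2.87 in mutant 1, the lowest, while the controls lay between 3.005 and 3.24. Mutants 2 and 3, which had low levels of the factors, had hair cell scores of 3.11 and 3.21, within the control range. The Schwann cell score was 7.73, 7.503 and 6.55 in mutants 1, 2 and 3, and 5.80, 5.91 and 6.54 in mutants 4, 5 and 6. Mutants 3 and 6 were thus nearly equal in this score. Among controls, control 1 had both the highest Schwann cell score, 5.94, and the highest mean level of the 6 factors, 0.39. Of the mutants, the neuron score was highest in mutant 4, at 6.27, and lowest in mutant 5, at 3.24. The part of these cell markers in the levels of the factors was not tested. In a fit that took both scores as covariates, 7 of the 8 log2 fold changes were above 0 and those of *Pou4f3*, *Gfi1*, *Barhl1* and *Rorb* changed sign, to 0.17, 0.01, 0.06 and 0.08. The largest moves were those of the factors with few reads, *Insm1* to -1.50 (SE 0.95) and *Atoh1* to 0.69 (SE 0.42). That fit called 1 gene in all, 0 of the 8 factors passed the threshold, and all of their adjusted p values were 0.99997.

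**Figure D3:**
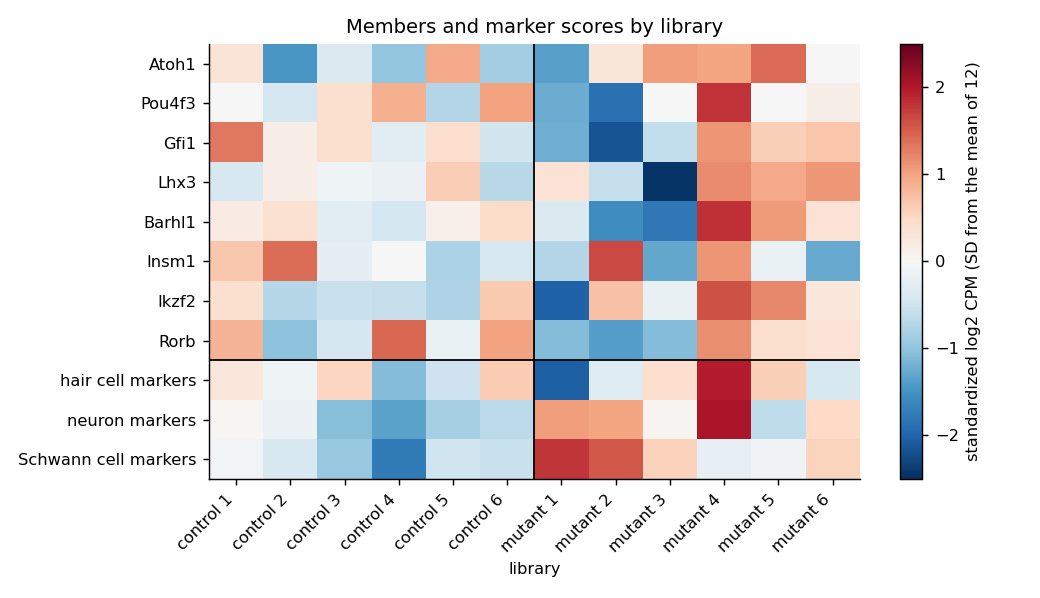
Standardized log2 CPM of the 8 factors and of the hair cell (without *Calb2* and *Pvalb*), neuron and Schwann cell marker scores in each library, in SDs from the mean of the 12 libraries, with red above and blue below that mean. Mutant 4 is red for all 8 factors, and the Schwann cell score is deepest red in mutants 1 and 2.

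The hair cell markers show whether the tissue held hair cells in both genotypes. Of 30 markers, 29 were tested and 0 were called in edgeR, and 3 had an unadjusted p under 0.05 as higher and 1 as lower in mutants, beside 6.52% and 4.04% of all tested genes. Those 4 genes were named after their values were seen. *Ush1c*, the scaffold protein harmonin of the hair bundle, had 64.0 ± 7.43 CPM in the controls against 49.4 ± 5.58 in the mutants (log2 fold change -0.37, SE 0.09, adjusted p = 0.0903, edgeR), and *Clrn1*, a membrane protein of hair cells, had 4.44 ± 0.598 against 5.88 ± 1.01 CPM (log2 fold change 0.41, SE 0.13, adjusted p = 0.201). The summed level of the markers without *Calb2* and *Pvalb* was 659 to 720 CPM in controls and 559 to 775 CPM in mutants. *Calb2* and *Pvalb*, calcium-binding proteins that neurons also make, were the other 2, with log2 fold changes of 1.52 and 1.42 (adjusted p = 0.134 and 0.146, edgeR). DESeq2 called *Calb2* and *Pvalb* as higher and *Ush1c* as lower. With the hair cell score of all 29 tested markers as a covariate, *Ikzf2* changed sign to -0.05 (SE 0.11, adjusted p = 0.899, edgeR) and 2 of the 8 factors were above 0. With the hair cell score without *Calb2* and *Pvalb* as a covariate, an alternative added after the data were seen, 3 of the 8 factors were above 0 and *Ikzf2* had a log2 fold change of 0.13 (SE 0.09, adjusted p = 0.672, edgeR).

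The Notch effector repressors, genes of the Hes and Hey families, were the one list with a called gene in edgeR. Of 6 genes, 1 was called by edgeR and by limma-voom, and 3 had an unadjusted p under 0.05, all lower in mutants, beside 4.04% of all tested genes in that direction. The 6 include *Hes6*, listed by family, which was also listed among the known targets of the factors described below. It is not taken here as upstream of *Atoh1*. *Hey1*, the called gene, had 52.3 ± 4.81 CPM in the controls against 31.4 ± 3.81 in the mutants (log2 fold change -0.74, SE 0.09, adjusted p = 0.00204, edgeR). *Hes5*, at 0.455 ± 0.173 CPM in controls and 0.174 ± 0.0648 in mutants, and *Heyl*, at 70.9 ± 2.56 and 60.5 ± 5.54 CPM, did not pass (adjusted p = 0.0958 and 0.129, edgeR). DESeq2 called all 3. In the edgeR fit with both cell scores as covariates, 0 genes of the lists were called. Per length, *Hey1* was also the most abundant of the 6, at 16.01 CPM per kb in controls. *Atoh1*, whose promoter window holds the 4 CACGCG runs shown above, was not called in the same libraries, and the interval of its difference leaves a wide range of values.

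The proteins that ATOH1 pairs with, and their inhibitors, showed 0 of 7 genes called by edgeR or DESeq2 and 0 at an unadjusted p under 0.05, with a median log2 fold change of -0.06. ATOH1 binds DNA as a dimer with E proteins (*Tcf3*, *Tcf4* and *Tcf12*), and the Id proteins sequester these. *Id3* was the most abundant per length, at 165 CPM per kb in controls, and *Atoh1* was at 0.165. These are levels of the whole tissue and do not give the levels of both genes in the same cells.

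Among 16 prosensory and hair cell subtype regulators, 15 were tested and 0 were called by edgeR, while DESeq2 called *Sox2*. *Sox2*, the supporting cell factor at whose locus the CreER allele sits, had 33.9 ± 6.49 CPM in the controls against 24.8 ± 3.60 in the mutants (log2 fold change -0.45, SE 0.13, adjusted p = 0.143, edgeR), and it had the only unadjusted p under 0.05 of the list. *Gata3*, a zinc finger factor of the sensory epithelium, was the most abundant per length, at 43.3 CPM per kb, and had a log2 fold change of 0.04 (SE 0.08).

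The RFX factors, which act in terminal hair cell maturation, and the pathway of REST, a repressor of neuronal genes that splicing inactivates in hair cells, had 0 of 8 genes called by edgeR, and DESeq2 called *Srrm4*. *Srrm4*, the splicing factor that inactivates REST in hair cells, had 2.98 ± 0.632 CPM in the controls against 4.73 ± 1.41 in the mutants (log2 fold change 0.67, adjusted p = 0.154, edgeR), and its paralog *Srrm3* had a log2 fold change of 0.50 (adjusted p = 0.311). *Rfx2* had a log2 fold change of -0.20 (adjusted p = 0.426). *Srrm4* and *Srrm3* are also made by neurons, and the neuron score was above every control in 5 mutants. The part of neurons in these values was not tested. *Rest* itself, the most abundant per length at 12.3 CPM per kb, had a log2 fold change of 0.04.

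Known targets of the factors were described next. Of 11 genes 0 were called by edgeR or DESeq2, 1 had an unadjusted p under 0.05, and 8 were below 0, with a median log2 fold change of -0.09. *Rbm24*, an RNA-binding protein that acts downstream of ATOH1 and POU4F3, had 29.5 ± 5.27 CPM in the controls against 22.1 ± 4.37 in the mutants (log2 fold change -0.42, SE 0.14, adjusted p = 0.219, edgeR). *Ocm*, the outer hair cell calcium buffer oncomodulin and the most abundant per length at 83.8 CPM per kb in controls, was at 61.4 ± 17.6 CPM and 46.5 ± 17.8 CPM (log2 fold change -0.40, SE 0.25, adjusted p = 0.682). Of the 7 corepressors listed for GFI1 and INSM1, 0 were called by either tool and 1 had an unadjusted p under 0.05. This was *Hdac1*, at a log2 fold change of -0.12 (adjusted p = 0.459, edgeR). *Hdac2*, the most abundant per length, was at 0.01.

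Among the lists of regulators, relatives and targets, the largest fitted log2 fold changes were those of 2 family members. Of 14 relatives listed, 13 were counted, 9 were tested and 0 were called by edgeR, while DESeq2 called *Pou4f1*. In edgeR *Pou4f1* and *Pou4f2* had unadjusted p values under 0.05, both higher in mutants, beside 6.52% of all tested genes. POU4F1 and POU4F2 are paralogs of POU4F3 that sensory neurons make. *Pou4f1* ran from 0.218 to 0.606 CPM in controls (mean 0.379 ± 0.152, SD, n = 6) and from 0.328 to 10.7 CPM in mutants (median 1.18) (log2 fold change 2.85, SE 0.83, adjusted p = 0.159, edgeR). Mutant 4 alone reached 10.7 CPM. *Pou4f2* ran from 0 to 0.891 CPM in controls and from 0.355 to 4.79 CPM in mutants (median 2.16) (log2 fold change 2.80, SE 0.79, adjusted p = 0.143, edgeR). The groups overlapped for both genes. In the libraries as a whole, *Pou4f1* and *Pou4f2* were high where the neuron score was high, and *Pou4f3*, although also highest in mutant 4 at 21.1 CPM, did not follow this order in the other libraries. Mutants 1 and 2, with neuron scores of 5.13 and 5.07, had *Pou4f2* at 2.36 and 2.76 CPM but the lowest *Pou4f3* of the 12 libraries. *Rora*, the most abundant of the relatives per length at 7.18 CPM per kb in controls, had a log2 fold change of -0.13 (SE 0.12).

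**Figure D4:**
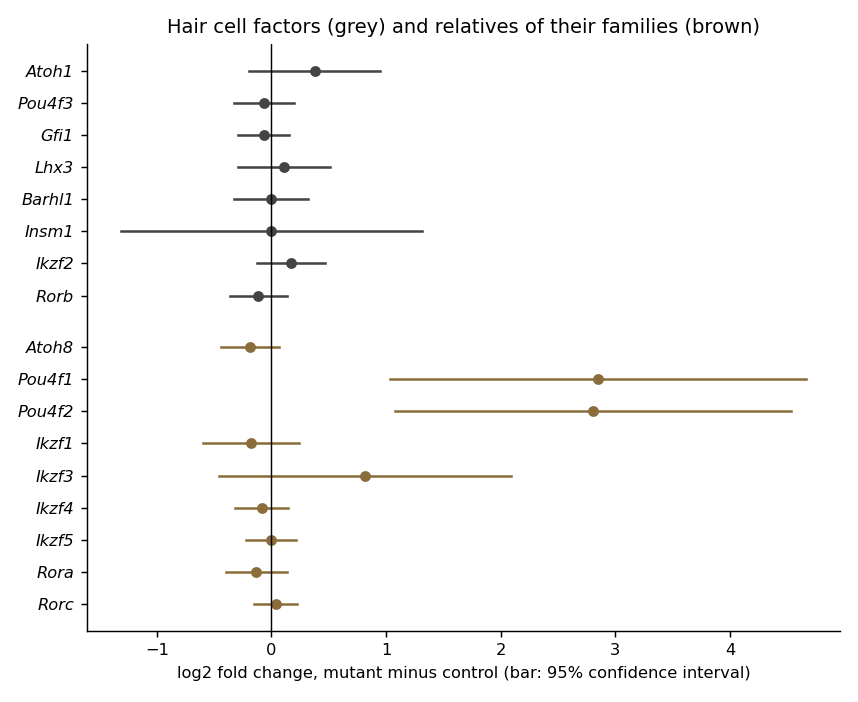
Log2 fold change of mutants against controls for the 8 hair cell transcription factors (grey) and the 9 tested relatives (brown), with 95% confidence intervals as bars. The intervals of the 8 factors all include 0, and those of *Pou4f1* and *Pou4f2*, centred at 2.85 and 2.80, lie above 0, although neither gene passed the adjusted threshold in edgeR.

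**Figure D5:**
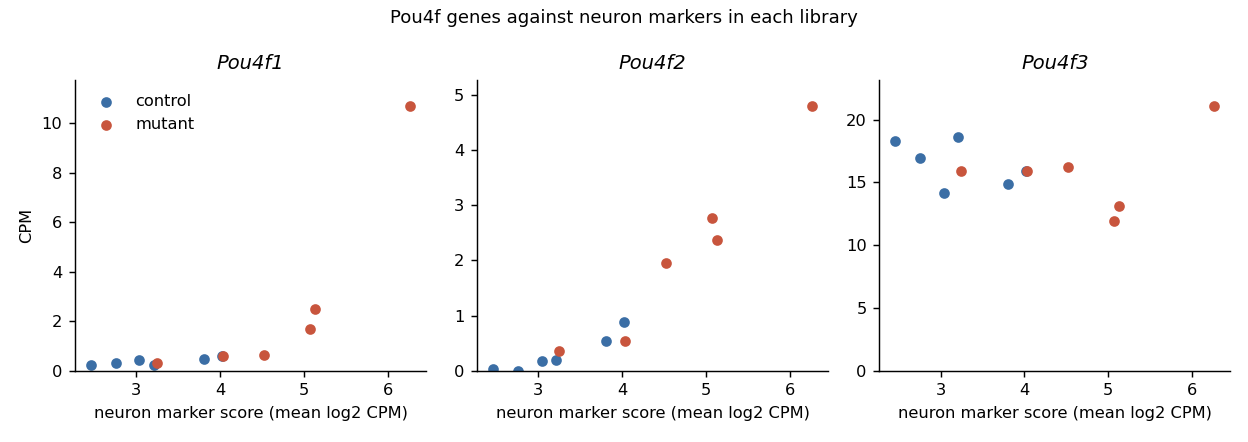
CPM of *Pou4f1*, *Pou4f2* and *Pou4f3* against the neuron marker score in each library, in controls (blue) and mutants (red), each panel on its own linear axis from 0. *Pou4f1* and *Pou4f2* reach 10.7 and 4.79 CPM in the mutant with the highest neuron score, 6.27, and *Pou4f3* is also highest there, at 21.1 CPM, but lies between 11.9 and 18.6 CPM with no such rise in the other 11 libraries.

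Genes with the profile most like that of each factor were found from standardized log2 CPM over the 12 libraries, as deviations from the genotype means, by the root mean square difference in SDs. Across all compared genes the median difference from a factor was between 1.38 and 1.41. Nearest to *Pou4f3* was *Tmc1*, which encodes a part of the mechanotransduction channel of hair cells, at 0.397, followed by *Slc45a3* and *Cep41*. Nearest to *Ikzf2* was *Adgrv1*, the adhesion receptor of the ankle links of stereocilia, at 0.309, followed by *Ddi2* and *Ankrd6*. For *Rorb* the nearest were *Fzd8*, at 0.378, *Htr1b* and *Fam222b*, and for *Atoh1* they were *Dnah9*, at 0.417, *Slc26a11* and *Gipc2*. For *Gfi1* they were *Ttc25*, *Pigh* and *Sobp*, for *Lhx3* *1700020L24Rik*, *Tox2* and *Junb*, for *Barhl1* *Lrrc10b*, *Nptx2* and *Gipc3*, and for *Insm1* *Zhx3*, *Zfp536* and *Smyd3*. Nearest to the mean profile of the 8 factors were *Dgkb*, *Kcnk2*, *Slitrk2*, *Ssx2ip* and *Nhlh1*.

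The number of hair cell markers with a like profile varied between factors. Of 28 markers, the nearest 10% of genes held 10 for *Atoh1*, 8 each for *Gfi1* and *Barhl1*, 7 for *Pou4f3*, 4 each for *Ikzf2* and *Rorb*, 1 for *Lhx3* and 0 for *Insm1*. The *Atoh1* profile rests on 8 to 22 reads per library. The coefficients of variation of *Atoh1*, 30.2% in controls and 28.4% in mutants, were close to the 27.3% that read counting alone gives. Among the factors themselves, *Lhx3* and *Barhl1*, at a difference of 0.649, and *Pou4f3* and *Rorb*, at 0.654, were the closest pairs. Leaving aside *Atoh1* and *Insm1*, the farthest pair was *Lhx3* and *Ikzf2*, at 1.33. *Insm1* was far from the rest, at 1.09 to 1.49, and its values rest on few reads. All of these profiles share the same 12 libraries, so they are a description of these mice.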

How the data were processed

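The authors deposited raw counts of reads per gene symbol, 1 column per mouse, which were not normalized. The submitters' processing notes list Trimmomatic 0.32, STAR 2.4.2a, HTSeq 0.9.1, DESeq2 1.10.1 and GRCm38.p4, and the strand setting of counting is not given in the sources used here. A deposited table of the authors' own comparison (fold changes and p-values) was not used. Genes whose counts averaged 5 or more were compared between 6 mutants and 6 controls with the quasi-likelihood test of edgeR 4.0.16 in R 4.3.3 (robust, TMM normalization, no covariates), with Benjamini-Hochberg adjustment over all genes tested and a threshold of 0.05. Each library is 1 mouse, and libraries of 1 genotype differed by more than counting error. CPM values use TMM-scaled library sizes of the tested genes, and scores and profiles use log2 CPM with a prior count of 2. Exon lengths came from GENCODE M21 on GRCm38, which holds 92.3% of the symbols. The alternatives were RLE and upper-quartile normalization, other count filters, DESeq2 1.42.0, limma-voom (limma 3.58.1), a fit without robust estimation, replicate number as a block, marker scores as covariates and leaving out each mouse. Named genes are the 8 factors, *Jag1*, called genes of the lists, up to 3 genes per regulator list with the smallest unadjusted p under 0.05, the most abundant gene per length of each such list, the 3 genes nearest each factor in profile and the 5 nearest to their mean. Marker genes and antisense genes named beside them were chosen after their values were seen. The genes and lists were chosen with earlier results of these data known.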

Additional observations from a re-analysis of the deposited data

Results flagged for a closer look

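*Pou4f1* in mutant 4 stood apart from its group. It was at 10.7 CPM in this library, and the other 5 mutants lay between 0.328 and 2.48 CPM, so that the gap to the next mutant was 0.79 of the whole range of the group. This was 1 of 40 groups examined over 20 genes, in which chance gives about 5% of groups such a gap. The same library had the highest neuron score of the 12, and the part of neurons in the value was not tested.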

How the results depend on the processing

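None of the 8 factors was called under any alternative run. Of 106 values from alternatives other than leaving out a mouse, 100 kept their direction and side of the threshold. With the scores of neurons and Schwann cells as covariates, the log2 fold changes of *Pou4f3*, *Gfi1*, *Barhl1* and *Rorb* reversed, to 0.165, 0.0135, 0.0632 and 0.0815, *Jag1* no longer passed (-1.39, adjusted p = 0.0821, edgeR), and 1 gene and 0 list genes were called. *Ikzf2* reversed to -0.0503 with the hair cell score as a covariate. Compared with 35 genes called, 57 were called with no filter, 619 with DESeq2 (31 genes of the lists against 1), 19 with limma-voom, 78 with the hair cell score without *Calb2* and *Pvalb* and 70 without mutants 1 and 4, the last 2 added after the data were seen. The cause of these differences was not tested.

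With the replicate number as a block, 131 genes and 11 list genes were called. The deviations of same-numbered mice correlated at -0.19 to 0.27. For replicates 2 and 3 this correlation, 0.14 and 0.27, was above the highest with another number, 0.08 and 0.12. For the other replicates it was not. Whether same-numbered mice share more than a number cannot be told from these values.

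Leaving out 1 mouse at a time gave 14 to 356 genes called, the highest without mutant 5, and 1 to 12 list genes. The log2 fold changes ranged from -0.10 to 0.0667 for *Barhl1* (above 0 at 0.01, 0.01, 0.01, 0.06 and 0.0667) and from -0.18 to 0.22 for *Insm1* (above 0 at 0.08, 0.08, 0.16, 0.21 and 0.22), which passed the filter in 9 of 12 such fits, and kept their sign for the other 6, from 0.28 to 0.53 for *Atoh1*, -0.17 to -0.00 for *Pou4f3*, -0.11 to -0.02 for *Gfi1*, 0.04 to 0.23 for *Lhx3*, 0.09 to 0.27 for *Ikzf2* and -0.18 to -0.06 for *Rorb*. *Jag1* ranged from -1.54 to -1.39. *Atoh1* and *Insm1* were not tested at a mean count of 20. These 2 genes had the fewest reads.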

Other observations

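Macrophage markers, which no comparison above used, had log2 fold changes below 0 in 8 of 8 genes, of which 0 were called by edgeR and 5 had an unadjusted p under 0.05, beside 4.04% of all tested genes in that direction, with a median log2 fold change of -0.22. The mean log2 CPM of these markers was 4.64 ± 0.159 in controls and 4.40 ± 0.164 in mutants (SD, n = 6), and the groups overlapped. Markers of dividing cells had 0 of 8 genes called by edgeR or DESeq2 and 0 at an unadjusted p under 0.05, with a median log2 fold change of 0.01. Of 14 supporting cell markers 0 were called by edgeR, 4 had an unadjusted p under 0.05 as lower and 1 as higher in mutants, and the median log2 fold change was -0.14. The 15 neuron markers and 13 Schwann cell markers had medians of 1.61 and 1.69, with 12 genes of each list at an unadjusted p under 0.05 as higher in mutants and 0 called by edgeR. DESeq2 called 10 neuron and 10 Schwann cell markers, all as higher, 2 supporting cell markers and 1 macrophage marker.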
